A study of Mus musculus with 8 samples.

Results

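The regions described here are stretches of chromatin at the ends of protein-coding genes of mouse embryonic stem cells that carried no H3K27ac peak in either clone after 2 h of 4-hydroxytamoxifen (4OHT), and a peak in both untreated clones. The peaks of 4 H3K27ac lists were merged where they overlapped by at least 1 bp, which gave 82792 union regions. Of these, 5185 were called in neither 4OHT library and in both untreated libraries (6.26% of union regions) and are termed lost, and 337 of the lost regions lay within 1 kb of the start or the end of a protein-coding gene. These 337 made up 1.92% of the 17546 union regions at gene ends and touched 340 of 21887 genes (1.55%). The opposite pattern, termed gained, was found at 5130 union regions (6.20%). The regions were chosen by the peak calls in the same 4 libraries, so their presence in untreated cells and absence after 4OHT is a description and carries no test.

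The cells were E14tg2a, an embryonic stem cell line of 129SV background, and all of them carried a stable cRAF-ErT2 cassette, in which a modified oestrogen receptor part holds the kinase cRAF inactive until 4OHT binds and ERK signalling is switched on. They were kept in serum with LIF and 2 uM of the GSK3 inhibitor Chir99021, and for the last 24 h in serum, LIF and 250 nM of the FGF receptor inhibitor PD173074. The 4OHT group received 250 nM 4OHT for 2 h (clones a and b), and the untreated group (clones a and b) received none. No vehicle-treated group is named in the labels, so a response to ERK and a response to 4OHT itself cannot be told apart. Chromatin was precipitated with an antibody against H3K27ac (Abcam ab4729), and the 4 input libraries were not analysed here.

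The 4OHT lists held 59170 peaks in clone a and 62764 in clone b, and the untreated lists 61203 and 63276. Since no read depth is known, the absence of a peak says that nothing passed the caller's threshold there and no more. Of 8 stem cell markers, 7 had a peak within 1 kb of a gene end in every library (all but Esrrb), against 1 of 8 fibroblast markers (Col1a1) and 1 of 8 markers of differentiated tissue (Cd3e).

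H3K27ac is acetylation of a lysine in the tail of histone H3, placed mainly by the acetyltransferases p300 and CBP and removed by histone deacetylases. It marks active promoters, where it usually flanks the nucleosome-poor start site on both sides, and active enhancers. At promoters rich in CpG dinucleotides, acetylation is often present in many cell types, whereas promoters poor in CpG tend to be used in particular tissues.

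RefSeq promoter windows, from 250 bases before to 50 bases after the start (build GRCm38.p6, the assembly of mm10), were matched to 269 of the 340 genes. The 7 windows shown belong to lost regions that overlap them: the 5 whose regions ranked highest in the untreated lists (Defb46, Exoc4, Xaf1, Crip2 and Cyp2s1), and Tekt1 and Dmgdh, whose regions came next after that of Crip2 among those that also cover an annotated start. The Tekt1 window belongs to another start than the one its region covers. They are shown because CpG content, in capitals, differed between the groups of gene starts compared here, and they are ordered by their number of CpG dinucleotides. Each runs 5′ to 3′ along the gene.
Defb46, chr8:19239666-19239965, plus strand: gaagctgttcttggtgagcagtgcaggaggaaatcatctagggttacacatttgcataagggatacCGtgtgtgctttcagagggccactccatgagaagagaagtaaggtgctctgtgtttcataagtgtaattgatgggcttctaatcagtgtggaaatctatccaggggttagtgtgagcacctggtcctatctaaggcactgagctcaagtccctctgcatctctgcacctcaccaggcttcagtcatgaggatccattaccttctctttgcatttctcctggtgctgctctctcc
Xaf1, chr11:72301379-72301678, plus strand: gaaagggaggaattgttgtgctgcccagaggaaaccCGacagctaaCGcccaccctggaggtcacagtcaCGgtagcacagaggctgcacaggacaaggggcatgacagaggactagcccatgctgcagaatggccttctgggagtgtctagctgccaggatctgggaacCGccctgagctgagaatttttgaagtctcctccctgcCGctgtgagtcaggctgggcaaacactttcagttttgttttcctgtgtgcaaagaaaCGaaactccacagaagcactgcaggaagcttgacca
Exoc4, chr6:33248878-33249177, plus strand: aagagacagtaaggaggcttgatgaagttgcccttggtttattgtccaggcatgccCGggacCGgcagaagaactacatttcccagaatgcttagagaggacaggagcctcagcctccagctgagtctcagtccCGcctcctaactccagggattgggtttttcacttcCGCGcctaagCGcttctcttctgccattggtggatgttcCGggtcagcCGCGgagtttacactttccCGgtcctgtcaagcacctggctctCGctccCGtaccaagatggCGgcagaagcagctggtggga
Cyp2s1, chr7:25816476-25816775, minus strand: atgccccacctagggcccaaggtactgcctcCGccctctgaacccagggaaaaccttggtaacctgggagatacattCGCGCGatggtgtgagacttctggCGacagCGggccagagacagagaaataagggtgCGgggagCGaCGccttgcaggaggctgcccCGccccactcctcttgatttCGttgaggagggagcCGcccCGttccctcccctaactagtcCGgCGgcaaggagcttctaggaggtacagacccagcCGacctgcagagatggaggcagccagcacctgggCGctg
Tekt1, chr11:72361833-72362132, minus strand: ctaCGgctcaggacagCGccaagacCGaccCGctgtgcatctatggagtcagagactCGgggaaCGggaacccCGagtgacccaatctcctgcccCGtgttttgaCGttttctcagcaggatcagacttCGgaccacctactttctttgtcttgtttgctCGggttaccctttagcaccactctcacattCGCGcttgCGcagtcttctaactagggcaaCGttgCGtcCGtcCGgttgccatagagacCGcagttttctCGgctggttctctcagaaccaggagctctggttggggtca
Dmgdh, chr13:93674186-93674485, plus strand: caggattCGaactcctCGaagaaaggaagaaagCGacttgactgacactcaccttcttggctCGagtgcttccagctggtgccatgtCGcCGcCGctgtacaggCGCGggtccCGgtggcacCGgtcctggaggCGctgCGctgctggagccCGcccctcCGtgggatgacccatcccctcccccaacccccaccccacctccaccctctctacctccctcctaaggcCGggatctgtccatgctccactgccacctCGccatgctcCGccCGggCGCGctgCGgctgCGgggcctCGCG
Crip2, chr12:113139986-113140285, plus strand: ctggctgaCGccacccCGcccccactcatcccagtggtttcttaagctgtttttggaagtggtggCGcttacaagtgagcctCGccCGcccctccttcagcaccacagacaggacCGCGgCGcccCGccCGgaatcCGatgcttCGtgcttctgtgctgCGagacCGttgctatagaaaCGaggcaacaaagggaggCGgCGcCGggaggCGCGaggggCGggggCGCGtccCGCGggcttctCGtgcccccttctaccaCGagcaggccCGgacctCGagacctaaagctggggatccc
The Defb46 window held 1 CpG and the Xaf1 window 6, against 13 in Exoc4, 17 in Cyp2s1, 20 in Tekt1, 25 in Dmgdh and 29 in Crip2. The lost region at Dmgdh also lies within 1 kb of the start of Bhmt2.

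The lost regions at gene ends were small, weakly ranked peaks, as were the gained ones. Their median width was 466 bp (range 222 to 2789 bp), close to the 462 bp of the 828 regions gained at gene ends, which were called in both 4OHT libraries and in neither untreated one (4.72% of union regions at ends), and far below the 1244 bp of the 11419 regions called in all 4 libraries. These widths join the peaks of fewer libraries in lost regions than in regions called in all 4. Within untreated clones a and b, lost regions had median covered lengths of 342 and 363 bp, against 941 and 935 bp for regions called in all 4. The score that the authors deposited with each peak has no stated scale and was read only as a rank within its own list, as the percentile of the peak among all peaks of that list. The lost regions had a median percentile of 33.96 in untreated clone a (score 23 to 331, median 64) and 32.3 in untreated clone b (score 20 to 301, median 67). Regions called in all 4 libraries had medians of 76.7 and 79.4 in the same lists. Regions gained at gene ends had medians of 33.7 in the list of 4OHT clone a and 37.6 in that of 4OHT clone b. Lost and gained regions must lack a call in both libraries of a treatment, which itself favours small peaks near the caller's threshold.

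Lost regions elsewhere in the genome, 4848 in number, ranked alike, with median percentiles of 33.96 and 31.5 and a median width of 546 bp. At gene ends, 33 of the 337 lost regions (9.79%) stood above the middle of both untreated lists, 1 stood above the percentile of 75 in both (Clec4a1), and 67 (19.9%) below that of 25 in both. A single peak made up 312 of the regions in each untreated library. The ranks in the 2 clones were related only loosely, with a Spearman rho of 0.30 over the 337 regions for the percentile and 0.48 for the covered length. These regions come from the same pair of libraries and are not independent points.

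**Figure D1:**
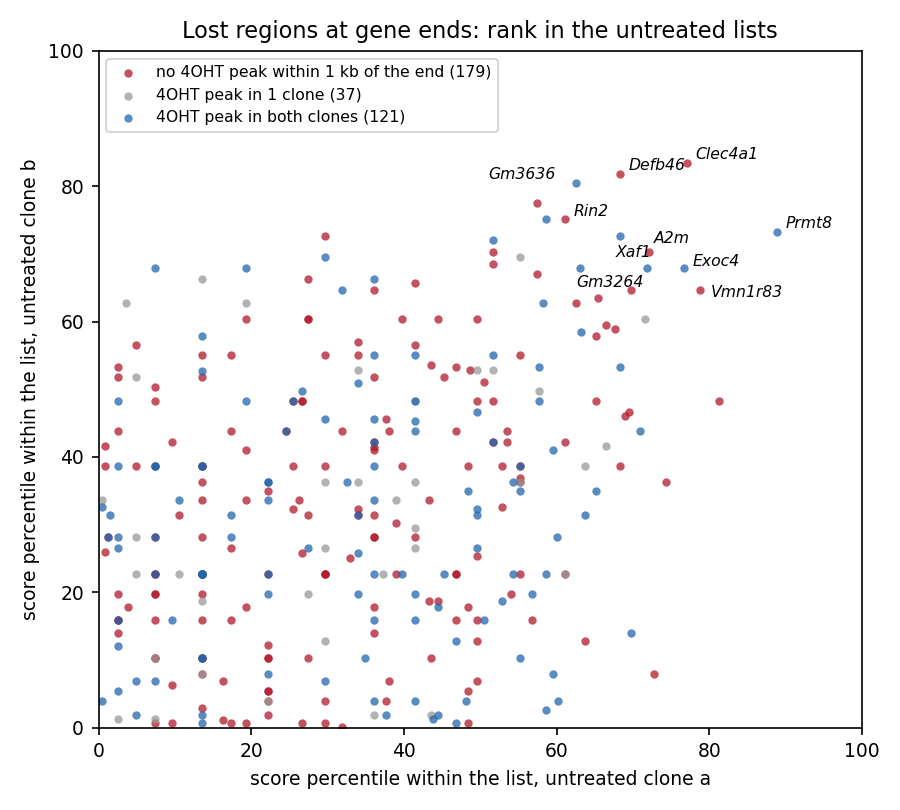
Each point is a lost region at a gene end, placed by the percentile of its score in the untreated clone a list (x axis) and the untreated clone b list (y axis), and coloured by whether the nearest gene end had another peak within 1 kb in the 4OHT libraries. Most points lie in the lower left, with medians of 33.96 and 32.3, and the 10 highest by mean percentile are named.

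More lost regions lay beside a gene start than over it, and the same held for gained regions. The strand was known for the gene ends nearest to 262 of the 337 regions, and 166 of these ends were starts (63.4%), against 77.5% for gained regions and 91.9% for regions called in all 4 libraries. Of the lost regions, 78 (23.1%) lay wholly before the start, 34 (10.1%) covered it and 54 (16.02%) lay behind it inside the gene. Regions called in all 4 libraries covered the start in 42.5% of cases and gained regions in 12.4%. Gained regions lay before the start in 15.7% and behind it inside the gene in 32.5%. Narrow regions can lie within 1 kb of a start at many places without covering it, so these shares depend on width.

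At the other end of the gene, 42 lost regions (12.5%) lay inside the gene, 27 (8.01%) covered the end and 27 (8.01%) lay past it. Of the gained regions 7.37%, 3.99% and 6.28% lay at these places, and of those called in all 4 libraries 1.52%, 3.10% and 1.95%. The remaining 75 lost regions (22.3%) lay at ends whose strand was not known. Regions are not replicates, so no test was made of these shares.

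Many gene ends with a lost region still had another peak after 4OHT. Of the 337 regions, some of which share an end, 121 (35.9%) had another peak within 1 kb of the nearest gene end in both 4OHT libraries, 37 (10.98%) in a single 4OHT library and 179 (53.1%) in neither. The share differed with the place. Regions before the start had such a 4OHT peak in both clones in 58 of 78 cases (74.4%), those covering the start in 10 of 34 (29.4%), and those behind it inside the gene in 15 of 54 (27.8%). Regions covering a gene's end did so in 4 of 27 cases (14.8%), as did those past the end. For gained regions, with untreated peaks counted in the same way, the share was 22.9% in all, 53.8% before the start and 9.71% over it. A lost region holds no 4OHT peak by rule, so one that covers a gene end leaves less room there for another peak.

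The distance to the nearest region called in all 4 libraries was 3041 bp in the median for lost regions, against 10634 bp for gained ones. That distance was at most 1 kb for 130 lost regions (38.6%), over 10 kb for 117 (34.7%) and over 100 kb for 22 (6.53%). Within 5 kb of the end, the median length covered by peaks was 364 bp in 4OHT clone a and 384 bp in 4OHT clone b, against 1181 bp in untreated clone a and 1177 bp in untreated clone b. Both 4OHT values lay below both untreated values for 293 regions and above both for 5, and the groups overlapped for 39. No peak lay within 5 kb in either 4OHT library for 112 (33.2%). The regions' own lengths are part of these sums, so the rule itself favours lower 4OHT values. The same counts were not made over all gene-end regions, so nothing is read from them.

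**Figure D2:**
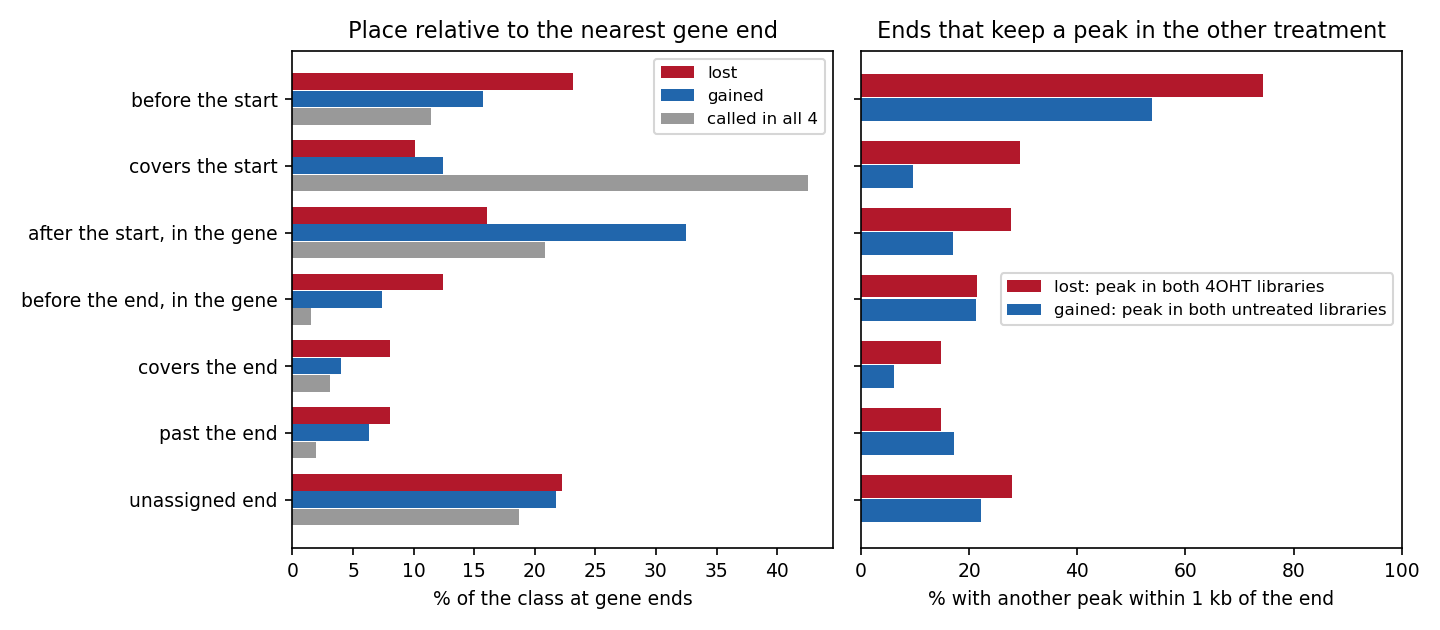
The left panel gives the percentage of lost, gained and constantly called gene-end regions (bars from 0) at each place relative to the nearest gene end. The right panel gives the percentage whose gene end had another peak within 1 kb in both libraries of the other treatment; lost regions before the start reached 74.4%, gained ones 53.8%.

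The highest ranked lost regions showed both patterns, a lost shoulder beside a start that still had a peak and a stretch with no 4OHT peak at all. Scores are those in untreated clones a and b, and covered lengths are given for clones a and b of each group. Prmt8 encodes a membrane-anchored arginine methyltransferase of the brain. Its region (chr6:127770111-127771310) ended 644 bp before the start and had the highest score of all in clone a, 331, with 191 in clone b. Within 5 kb of the start, peaks covered 830 and 733 bp in 4OHT clones a and b, against 2781 and 2531 bp in the untreated clones. The 4OHT peaks lay across the start itself.

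Exoc4 encodes a subunit of the exocyst, which tethers secretory vesicles to the plasma membrane. Its region (chr6:33248324-33248894, scores 190 and 161) was the middle of 3 neighbouring peaks, and those on either side were called in all 4 libraries. Peaks covered 1512 and 1075 bp in the 4OHT clones and 2010 and 1764 bp in the untreated clones. Xaf1, an interferon-inducible gene whose product binds the apoptosis inhibitor XIAP, had its region just before the start (chr11:72300601-72301436, scores 145 and 189), with 242 and 313 bp covered in the 4OHT clones, all of it behind the start, against 1856 and 1654 bp in the untreated clones.

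At other ends no peak was called within 1 kb after 4OHT. Clec4a1, which encodes a C-type lectin receptor of myeloid cells, had a lost region across its end (chr6:122934371-122935601, scores 195 and 301) and a further one inside the gene. No peak lay within 5 kb of that end in either 4OHT clone, against 3078 and 2242 bp in the untreated clones. A vomeronasal receptor gene, Vmn1r83, had a region across its end (chr7:12319837-12320438, scores 208 and 143), with 0 bp within 5 kb in both 4OHT clones and 1703 and 2183 bp in the untreated clones.

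A2m, which encodes the protease inhibitor alpha-2-macroglobulin, had 2 lost regions at an end of unknown kind. Peaks covered 0 bp there in both 4OHT clones and 1393 and 1289 bp in the untreated clones. Rin2, which encodes a RAB5 exchange factor that binds RAS, had a region across an annotated start (chr2:145771269-145772044, scores 118 and 209), with 0 bp in both 4OHT clones and 650 and 1488 bp in the untreated clones. Its listed promoter window belongs to another start, 13822 bp away. At Defb46, a beta-defensin gene, peaks covered 241 and 632 bp within 5 kb of the start in the 4OHT clones, against 3927 and 3999 bp in the untreated clones, most of it in a row of peaks before the start.

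**Figure D3:**
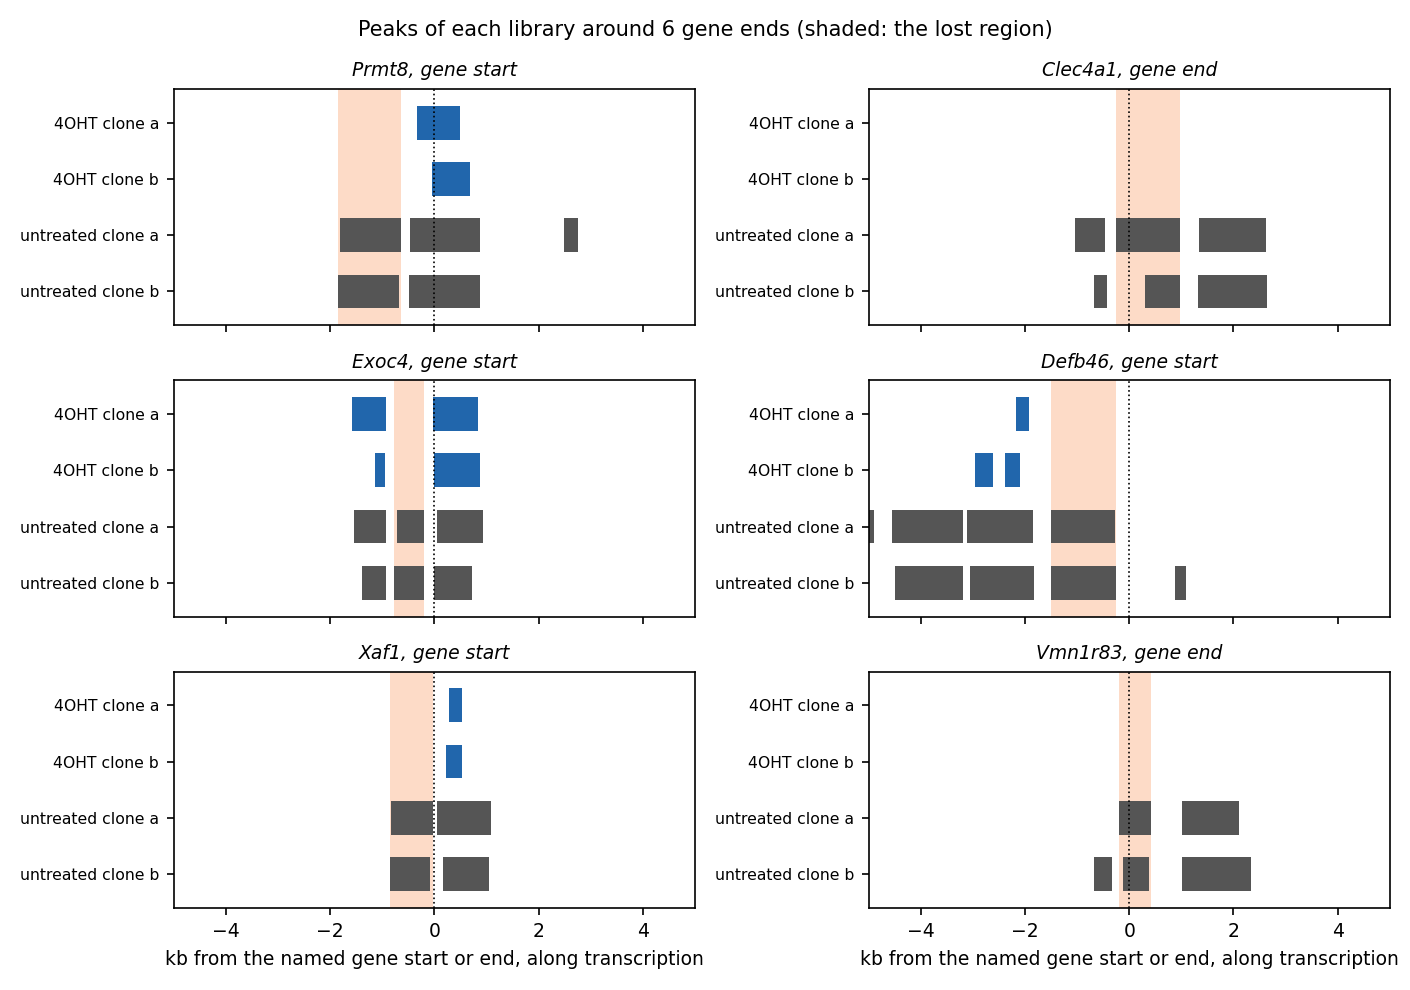
Bars are the peaks of each library (rows) within 5 kb of a gene start or end (dotted line), in kb along the direction of transcription, and the shading is the lost region. At Prmt8, Exoc4 and Xaf1 (left) peaks remained within 1 kb of the start in both 4OHT clones, whereas at Clec4a1, Defb46 and Vmn1r83 (right) none did.

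The widest lost regions lay at ends of unlike genes. The widest, 2789 bp, covered the end of Zdhhc1, which encodes a protein palmitoyltransferase, and also lay at an end of Tppp3 (scores 105 and 229). Within 5 kb of the Zdhhc1 end, peaks covered 0 and 477 bp in 4OHT clones a and b, against 5176 and 7148 bp in the untreated clones. Meig1, needed for spermatogenesis, followed with 2550 bp (580 and 564 bp in the 4OHT clones, 2937 and 3003 bp in the untreated ones). Others were Bcl2l10, a BCL2 family gene, with 1990 bp, and the transketolase gene Tkt, with 1608 bp at its end.

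There were 16 genes with more than 1 lost region at their ends. Abcg1, a cholesterol exporter gene, and Rax, a homeobox gene of the developing eye, had 3 each. Abcg1 lost a pair of regions at 1 end and a further one at the other, and within 5 kb of that other end peaks covered 688 and 0 bp in the 4OHT clones and 4756 and 2455 bp in the untreated clones. Fasn, the fatty acid synthase gene, had regions at both ends. The one inside the gene near its end (scores 137 and 80) had 303 and 0 bp covered within 5 kb in the 4OHT clones, against 1778 and 2306 bp in the untreated clones, and the one at its start also lay just past the end of Ccdc57.

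The other genes with 2 were A2m, Ccdc57, Clec4a1, Dpys, Dynll1, Gm3264, Gm52787, Gpr21, Plscr2, Pon3, Pramel6, Serpina3i and Slc52a3. At the start of Serpina3i, a serine protease inhibitor gene, the regions lay on either side. Peaks covered 0 bp there in both 4OHT clones and 1417 and 1665 bp in the untreated clones. In all, 44 lost gene-end regions had another within 50 kb, in 21 groups of at most 3.

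A set of 7 lost regions lay at 6 predicted genes of a repetitive stretch of chromosome 14 below 10 Mb (Gm3636, Gm3264, Gm3239, Gm3667, Gm2897 and Gm3411), and 4 of them ranked among the upper 25. Some of their promoter windows resemble each other: over 15 pairs of genes the identity of the most alike windows was 45.9% (Gm2897 and Gm3239) to 94.7% (Gm3636 and Gm3667). Reads from near copies can be placed on the wrong one, so the values of single copies are uncertain. Gm3636, ranked highest (scores 122 and 260), had 517 and 601 bp covered within 5 kb of its start in the 4OHT clones and 895 and 859 bp in the untreated clones.

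Listed signalling, lineage and housekeeping genes had a lost end region at a share near that of all genes. Over 20 lists, 7 of 479 distinct genes had a lost end region (1.46%, against 1.55% of all genes), while 42 had a gained one (8.77%, against 3.97% of all genes) and 303 one called in all 4 libraries. None of 34 immediate early genes, 23 ETS factors and feedback inhibitors, 28 components of the FGF to ERK cascade or 33 genes of naive pluripotency had a lost end region, whereas 6, 3, 3 and 2 of them had a gained one. The lists without a lost end region numbered 15, and lists this short would hold few at the share of all genes.

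Lifr, of the LIF, JAK and STAT list, encodes the receptor subunit that binds LIF, the cytokine in the medium. Its region lay 269 bp before an annotated start (chr15:7089912-7090341, scores 24 and 58), where peaks covered 0 bp within 5 kb in both 4OHT clones and 502 and 787 bp in the untreated clones. The region lay 38981 bp from the RefSeq promoter window listed for Lifr. The Lifr locus as a whole, counted with 50 kb on either side, had 14.9 and 14.4 kb covered in the 4OHT clones and 17.5 and 19.7 kb in the untreated clones. Its log2 change was -0.33, with an adjusted p from limma of 0.143 without and 0.0107 with clone as a replicate block. With the lost end regions left out of the covered length, the change was -0.30 (limma without the block, adjusted p 0.168). The same contrast chose this gene and its lost region lies inside the window, so nothing is read from these p-values. The fit with that block called 2486 shorter and 3639 longer of all 16049 loci.

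Acvr2b, of the list of Nodal, TGF beta and BMP genes, encodes a receptor for activin and Nodal, and its region covered the start (scores 100 and 41). Other peaks lay nearby in every library, and peaks covered 1318 and 1361 bp within 5 kb in the 4OHT clones and 1344 and 1551 bp in the untreated clones, which overlap.

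Fst, which encodes the activin antagonist follistatin, stood in the formative and the primitive endoderm lists as the only member of either with a lost end region. Its groups overlapped, with 1299 and 1662 bp covered in the 4OHT clones and 1293 and 1479 bp in the untreated clones. The cell cycle list held 2 of 34, Rbl2, an RB family pocket protein gene, and Cdc25c, a phosphatase gene of mitotic entry. Peaks covered 281 and 470 bp at Rbl2 in the 4OHT clones and 230 and 638 bp in the untreated clones, which overlap. At Cdc25c they covered 451 and 373 bp in the 4OHT clones and 861 and 646 bp in the untreated clones.

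Gene families named by symbol were counted in the same way, without a test. Genes of the Rnf and Trim families, many of which encode ubiquitin ligases, had a lost end region in 13 of 151 cases (8.61%, against 1.55% of all genes), while 4 had a gained one. The highest ranked was Trim47, with a region inside the gene 22 bp from its end (scores 108 and 94), where peaks covered 747 and 0 bp within 5 kb in the 4OHT clones and 5078 and 4216 bp in the untreated clones. At Rnf8, a ligase of the DNA damage response, 0 bp was covered in both 4OHT clones and 556 and 979 bp in the untreated clones. At Rnf182 it was 283 and 255 bp in the 4OHT clones and 915 and 1278 bp in the untreated clones, and at Trim72 it was 0 bp in both 4OHT clones and 1403 and 857 bp in the untreated clones.

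Solute carrier genes had a lost end region in 8 of 389 cases (2.06%) and a gained one in 22. Among them were Slc52a3, a riboflavin transporter gene with 2 regions, Slc51a, a subunit of a bile acid and steroid transporter, Slc23a1, a vitamin C transporter gene, and Slc25a42, which encodes a mitochondrial carrier. Slc51a had no peak within 5 kb in either 4OHT clone, against 848 and 1149 bp in the untreated clones. At Slc25a42 the values were 277 and 327 bp in the 4OHT clones and 244 and 254 bp in the untreated clones, so that coverage around the start was not lower although a region was lost.

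The other families held few such genes, and their shares are read against the 1.55% of all genes. Ion channel genes had 4 of 134 (2.99%; Kcnu1, Kcnj6, Cacna1a and Kcnmb2) and genes of the Gpr and Adgr receptor families 4 of 102 (3.92%; Adgrg5, Gpr21, Adgrl1 and Gpr182). Ribosomal protein genes had 2 of 85 (2.35%, Rpl38 and Rpl36a), keratin genes 1 of 53 (1.89%, Krt222), defensin genes 1 of 71 (1.41%, Defb46) and Zfp zinc finger genes 1 of 397 (0.252%, Zfp712). None of 1110 olfactory receptor genes and none of 39 Hox genes had a lost end region, and 8 Hox genes had a gained one.

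Promoters at lost starts had a lower median CpG ratio than those at starts with gained or constantly called regions. Sequence was not used to choose the regions. Over 176 promoter windows of genes with a lost region at the start, the median ratio of observed to expected CpG was 0.637, against 0.754 over 516 promoters with a gained region, 0.802 over 8031 with a region called in all 4 libraries and 0.577 over all 17492. A ratio above 0.6 was found in 55.7% of lost, 71.1% of gained, 80.0% of constantly called and 48.4% of all promoters. For the lost, gained and constantly called sets the window nearest to the region was read. For all promoters it was the window nearest to the gene's outer start. A gene can be in more than 1 set: 178 of the 340 genes with a lost end region also had one called in all 4 libraries. Over the 79 windows that the lost region itself overlaps, the median was 0.607.

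Among the lost starts, the ratio differed with what was called after 4OHT at the gene end nearest to the region. Where that end had another peak within 1 kb in both 4OHT libraries (87 promoters), the median ratio was 0.731 and 71.3% lay above 0.6. Where it had none in either (74 promoters), the median was 0.464 and 37.8% lay above 0.6. That end was not always the start whose window was read. The split was not repeated over only the windows that a lost region overlaps. Single genes differ from this, since Defb46 had a ratio of 0.0572 and no 4OHT peak within 1 kb of its start, but Tekt1 and Dmgdh had ratios of 0.856 and 0.753 and likewise none. No test was made, because promoters are not replicates.

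**Figure D4:**
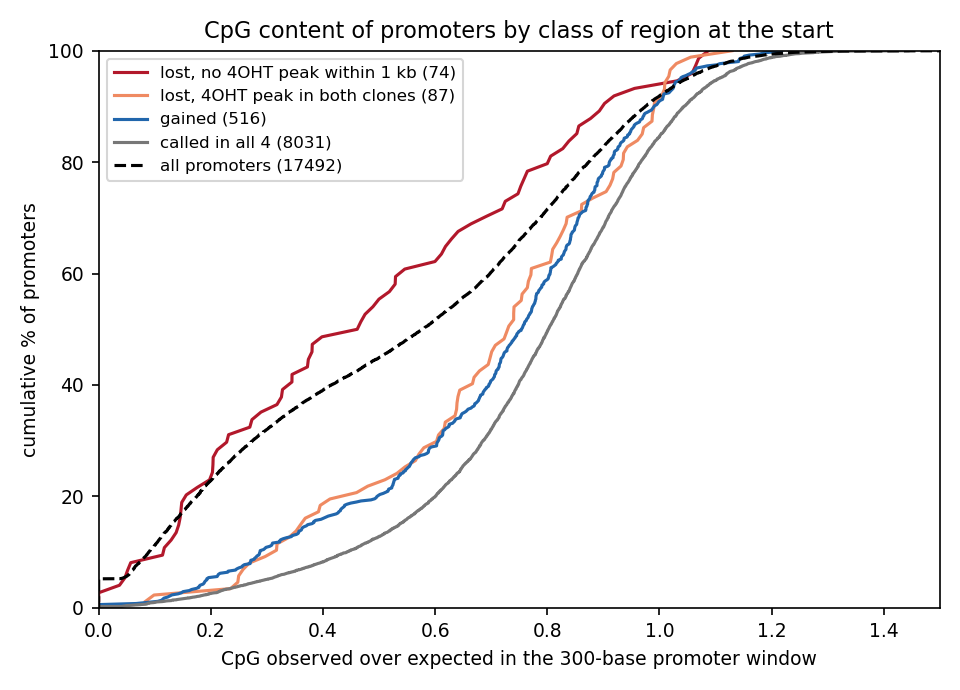
Lines give the cumulative percentage of promoters (y axis) up to each ratio of observed to expected CpG in the promoter window of 300 bases (x axis), by the class of region at the gene start, with the number of promoters in brackets. The line for lost starts without a 4OHT peak lies left of that for all promoters (medians 0.464 and 0.577), and the line for lost starts with a 4OHT peak in both clones lies near the gained starts (0.731 and 0.754). For the lost starts, 4OHT peaks were counted within 1 kb of the gene end nearest to the region.

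The windows were searched on both strands for 10 short motifs, whose matches may overlap each other as the GC box and ETS letters do in Crip2. The ETS letters CCGGAA were found in 14.8% of lost, 21.1% of gained, 32.6% of constantly called and 19.11% of all promoters. The GC box GGGCGG, read by SP and KLF factors, was found in 59.1%, 70.0%, 67.5% and 46.3% of these sets, in the same order. The TATA box TATAAA was found in 7.95%, 7.17%, 6.50% and 13.3%, and the CREB letters TGACGT in 7.39%, 8.14%, 13.4% and 8.71%.

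The AP-1 site TGANTCA was found in 2.84% of lost, 4.46% of gained, 3.97% of constantly called and 7.03% of all promoters, and the NF-Y letters CCAAT in 39.8%, 34.9%, 39.8% and 39.2%. Over the windows that the region itself overlaps, the AP-1 share was 5.06% of 79 lost and 3.76% of 266 gained promoters, so the order of these sets turned round. The E-box CACGTG was found in 7.95% of lost, 10.9% of gained, 11.1% of constantly called and 7.91% of all promoters, and the octamer TGCAAAT in 3.98%, 3.88%, 2.64% and 3.79% of these sets. The nuclear receptor letters AAGGTCA were found in 2.84%, 2.71%, 2.83% and 4.06%, and the TCF letters CTTTGAT in 1.70%, 2.13%, 2.40% and 3.28%. A match is a run of letters and no measure of binding.

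Covered length was also compared over wider windows, where the rule that chose the genes itself favours lower values after 4OHT. The length covered by peaks was summed over each gene and 50 kb on either side, and 16049 loci were compared with limma on the log2 of the covered bp plus 500 (Benjamini-Hochberg adjustment). Covered length was greater after 4OHT at 642 loci (4.00%) and smaller at 461 (2.87%), with an adjusted p under 0.05. Of the 340 genes with a lost end region, 309 reached the minimum mean of 1000 bp, and 48 of their loci were among the shorter ones and 1 among the longer. Their median log2 change was -0.30 (SD over loci 0.64), against 0.08 over all loci, and it was -0.30 in each clone. The change was negative at 230 of the 309 loci (74.4%), against 40.3% of all loci. Since the same contrast chose the genes and the lost regions lie inside these windows, nothing is read from these counts.

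Both 4OHT libraries lay below both untreated ones at 180 of the 309 loci (58.3%, against 21.7% of all loci). The choice of the genes favours this as well. With the lost end regions left out of the covered length, 33 of the 48 loci still passed, and the median was -0.22. Of all 16039 loci in that fit, 415 were shorter. With clone as a replicate block, 150 of the loci were shorter and 17 longer, against 2486 shorter and 3639 longer of all 16049 loci. With a library left out, 1 group has a single sample that is assumed to vary like the others, and fewer calls are left. Limma then called 0 of these loci shorter without 4OHT clone a or without untreated clone a (where 3225 and 3272 of all loci had an unadjusted p under 0.05), 9 without 4OHT clone b and 18 without untreated clone b. The median log2 change was -0.33 without 4OHT clone a, -0.27 without 4OHT clone b and -0.28 without either untreated clone. Over all loci, 30 were longer and 73 shorter without 4OHT clone b, so the order of these counts depends on that library. Neighbouring genes can share a window, and the 48 loci had 46 distinct sets of values.

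Loci with great decreases among the 48 belonged to genes of several kinds. At St8sia5, a sialyltransferase gene, no peak was listed in the window in either 4OHT clone, against 3.24 and 2.53 kb in untreated clones a and b. No fold is given against a group at 0.

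At Defb46, 0.241 and 0.632 kb were covered in the 4OHT clones and 5.95 and 6.01 kb in the untreated clones, a log2 change of -2.82 (SE 0.26). Dglucy, a D-glutamate cyclase gene, had 1.55 and 0.868 kb in the 4OHT clones and 12.4 and 7.35 kb in the untreated clones (-2.58, SE 0.32). Rspo2, which encodes a secreted enhancer of WNT signalling, had 0 and 0.404 kb in the 4OHT clones and 2.96 and 3.50 kb in the untreated clones (-2.47, SE 0.35). In all of these the groups did not overlap.

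The only locus of these genes past the threshold with more covered length was 2410004P03Rik, with 6.11 and 8.32 kb in 4OHT clones a and b against 0.773 and 0.783 kb in the untreated clones (log2 change 2.58). Its lost region lay inside the gene 98 bp behind the start (scores 66 and 77), where no peak was called within 5 kb in either 4OHT clone. A lost end region and a longer locus therefore occurred together there.

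**Figure D5:**
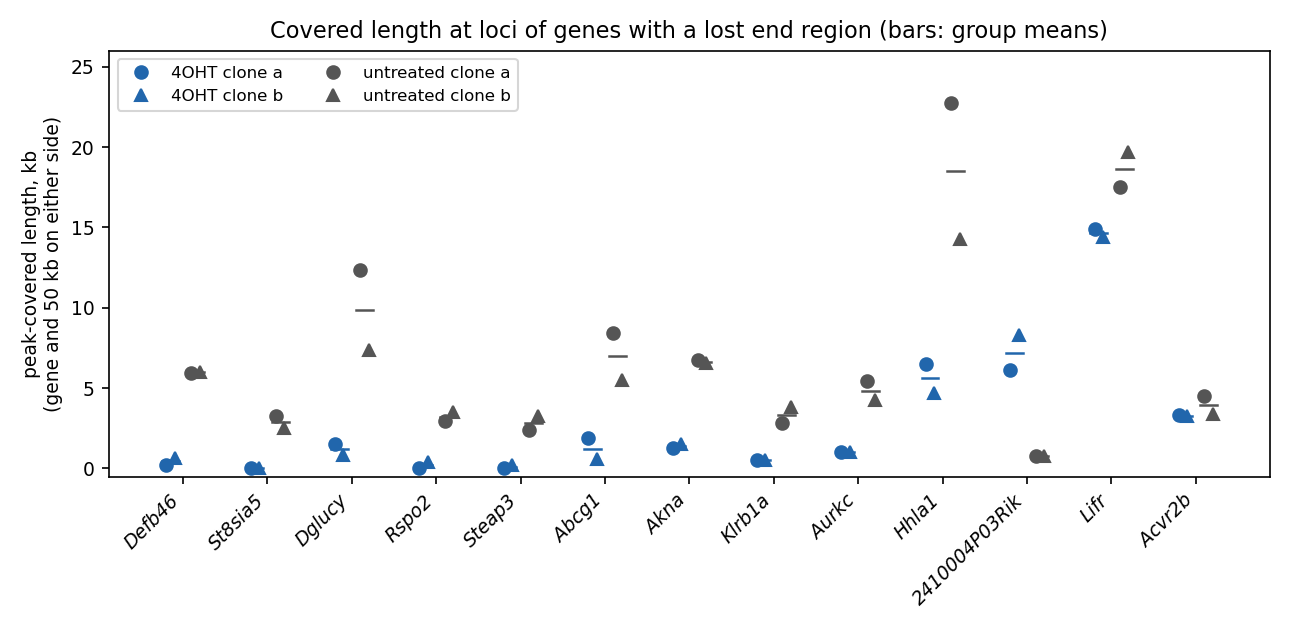
Points give the peak-covered length in kb of each gene and 50 kb on either side in 4OHT clones a and b (blue) and untreated clones a and b (grey), and short bars give group means (n = 2 clones). The first 10 genes are among those with the greatest decreases of the 48, 2410004P03Rik is the locus with an increase, and Lifr and Acvr2b are signalling genes that did not pass the threshold (with clone as a replicate block, Lifr did). The same contrast chose all of these genes, so nothing is read from which of them passed.

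The limit of 1 kb cut through a continuous range of distances. Just inside it lay regions 986 bp from the start of Hsp90b1, a chaperone gene of the endoplasmic reticulum (scores 39 and 47), and 980 bp from the end of Crxos (scores 82 and 105). Just outside it lay a region 1009 bp from an end of LOC115489489 (scores 74 and 74) and a second region near Vmn1r83, 1009 bp from its end (scores 88 and 71). Within 500 bp of the end lay 254 of the 337 regions, and 21 lay at ends of more than 1 gene.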

How the data were processed

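H3K27ac peak lists of 4 libraries were used. Per the submitters' processing notes, Bowtie2, bedtools and MACS2 were used on build mm10. Their versions and thresholds, and whether inputs were used, were not given in the sources used here. There is 1 deposited list per library, in which every peak has a score that is the authors' own value with no stated scale and was used only within that list. No reads or counts are given, so depth is unknown and no counting interval was computed.

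Peaks overlapping by 1 bp or more were merged with pandas 2.3.3, and a library was counted as calling a region where any of its peaks touched it. Where a region held several peaks of a library, the highest score was taken. Genes came from a RefSeq table of GRCm38.p6, and start and strand from its promoter table, which covers 17492 of 21887 genes; other ends are called ends of unknown kind. No genome sequence was used, so sequence was read from the promoter windows only.

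Loci (gene and 50 kb on either side, mean covered length of at least 1000 bp) were compared with limma 3.58.1 in R 4.3.3 on log2(covered bp + 500), which understates changes of short lengths, with a mean-dependent prior variance and no clone term. The procedure was run on simulated data with independent libraries, the same spread at every locus and no clone difference. The loci here differ in spread and share clone differences, so that run does not show how reliable the present calls are. Clone letters pair the treatments, since both libraries of a letter come from the same clone; deviations of clone a from its group mean correlated at 0.61 over loci between 4OHT and untreated cells. With 2 clones per group, each p-value weighs the spread between these clones, pooled with a prior variance taken over all loci. Without a clone term, a clone difference shared by both treatments counts as spread.

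The members, the gene lists and the families were chosen with earlier results of these data known. Named genes are the 10 regions with the highest mean percentile, the 5 widest, genes with more than 1 region, list genes with a region, the 5 greatest decreases and increases past the limma threshold, up to 4 genes per family, 2 regions on each side of 1 kb, and the 3 highest ranked at a start; other genes were picked with their values in view. Some genes that these rules name are not reported here. Alternatives changed the score filter, the merging, the distance, the window, the pseudocount, the filter, the scaling and the clone term, or left out a library.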

Additional observations from a re-analysis of the deposited data

How the results depend on the processing

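The number of lost regions at gene ends, 337 in 340 genes, follows the settings. It was 200 (207 genes) with the upper 50% of each list by score, 154 (158 genes) with the top 20000 peaks, 153 (158 genes) with peaks within 1000 bp merged, 529 (539 genes) within 2000 bp of an end, 76 (76 genes) for regions covering an end and 173 (176 genes) at gene starts only. With a library left out the rule asks for fewer absences or presences, and gave 557 to 951 regions in 557 to 916 genes. The share of lost regions at ends, 6.50%, became 7.95% (upper 50%), 9.38% (top 20000), 4.90% (within 500 bp), 10.2% (within 2000 bp), 1.47% (covering), 3.34% (starts only) and 6.55% to 8.05% with a library left out. The share of these regions whose gene end had another peak in both 4OHT libraries, 35.9%, became 25% (upper 50%), 25.97% (top 20000), 45.4% (peaks covering at least 50% of a region), 1.31% (peaks within 1000 bp merged, which joins such neighbours by construction) and 37.3% to 47.1% with a library left out.

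With clone as a replicate block, 3639 loci were longer and 2486 shorter after 4OHT, among them 17 and 150 of genes with a lost end region, and all 1103 loci called without it passed. A window of 10 kb gave 393 longer and 278 shorter loci and no filter gave 88 and 53, of which 4 shorter loci were of these genes. Their longer loci numbered 0 with a window of 10 kb or no filter (where limma had 2905 and 4661 of all loci at an unadjusted p under 0.05) and 2 with a window of 100 kb or scaling to the total covered length. Leaving out a library gave 0 to 406 longer and 0 to 162 shorter loci, 0 to 2 and 0 to 18 of these genes, and 3136 to 3526 loci at an unadjusted p under 0.05. The median log2 change of these loci was -0.43 (10 kb), -0.19 (100 kb), -0.32 and -0.24 (pseudocounts of 100 and 2000 bp), -0.35 (no filter), -0.29 (scaled), -0.22 (lost end regions left out) and -0.33 to -0.27 with a library left out. This median was negative under each of these settings, but the same contrast chose the genes and favours that sign. Over all loci the longer outnumbered the shorter as reported (642 and 461), but not without 4OHT replicate b. Of 118 alternative values 43 stayed close or inside their interval. The AP-1 share was among them, although it was 5.06% over windows that the lost region overlaps and 2.84% as reported. The cause of the other 75 changes was not tested beyond what each setting changes by construction. Depth is unknown and limits every call.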

Other observations

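Other gene groups stood out when the 340 genes were read through, and they were counted after their values were seen, so the counts are descriptions without a test. Genes with Cfap, Tekt, Rsph or Spef symbols, most of which encode parts of cilia and flagella, had a lost end region in 8 of 49 cases (16.3%, against 1.55% of all genes), a gained one in 2 and one called in all 4 libraries in 19. They were Cfap20, Cfap43, Cfap44, Cfap157, Rsph4a, Spef1, Tekt1 and Tekt2. Among the families named by symbol, the 60 kinesin and dynein genes held none with a lost end region and 5 with a gained one. Dynll1, with 2 lost regions, was not in that family. At Cfap44 peaks covered 655 and 714 bp within 5 kb of the start in 4OHT clones a and b, against 1246 and 2010 bp in the untreated clones. At Spef1 they covered 341 and 798 bp in the 4OHT clones and 2444 and 4100 bp in the untreated clones. At Tekt2 the groups overlapped, with 785 and 1210 bp in the 4OHT clones and 983 and 1177 bp in the untreated clones.

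Some genes with a lost end region are known for roles in interferon signalling. They were picked with their values in view, and no list of such genes was counted as a whole. Of 9 Irf genes 2 had a lost end region (22.2%, Irf1 and Irf9), and of 25 Ifi and Ifit genes 1 (4%, Ifi207), against 1.55% of all genes. Stat2, Xaf1 and Eif2ak2, which encodes the double-stranded RNA kinase PKR, were others. At the start of Irf1, a transcription factor gene, peaks covered 578 and 440 bp within 5 kb in the 4OHT clones and 1320 and 1245 bp in the untreated clones. At Stat2 they covered 344 and 409 bp in the 4OHT clones and 1060 and 1346 bp in the untreated clones. The values of the wider loci differed in direction. Irf1 had 6.85 and 3.67 kb covered in the 4OHT clones and 12.9 and 9.06 kb in the untreated clones, while Stat2 had 15.1 and 12.98 kb in the 4OHT clones and 13.9 and 11.7 kb in the untreated clones, which overlap. The Irf9 region is shared with Rnf31 and the Eif2ak2 region with Gm26637, and at that end peaks covered 2889 and 2631 bp in the 4OHT clones and 1953 and 1411 bp in the untreated clones.

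That end is among 5 where both 4OHT values within 5 kb lay above both untreated values despite a lost region (Slc25a42, Retreg1, Prrt2, Mpeg1 and Gm26637). A lost and a gained end region were both found at 11 genes, at shares near those of all genes. Of the genes with a lost end region 3.24% also had a gained one, against 3.97% of all genes. Of those with a gained one 1.26% also had a lost one, against 1.55% of all genes. Tnfrsf genes had 2 of 20 (10%) and Pramel genes 2 of 46 (4.35%), families likewise picked with values in view, against 1.55% of all genes. By chromosome, lost regions made up 1.15% (chromosome 19) to 2.64% (chromosome 6) of the union regions at gene ends, leaving out chromosome Y, which had none.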
